A study of Mus musculus with 31 samples.

Results

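The 8 genes described here are Nt5e, Kcnj14, Plpp2, Sh2d1a, Pdzph1, Aqp1, Sbspon and C1ql2, out of 18193 genes measured in mouse retina. They were taken by symbol from the genes with the largest falls in retinas that lack the nuclear receptor gene Rorb, leaving out genes of phototransduction. The values that chose them are therefore the differences between Rorb-/- and wild-type retinas at both ages, and those differences are given below as a description without a test. What the choice did not use are the signals of mice with an Nrl transgene, and thus the difference between the 2 transgenic genotypes. Comparisons of a transgenic group with a group that lacks the transgene are only partly free of the choice.

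Each sample was the RNA of both retinas of 1 mouse, measured on an Affymetrix expression array. Mice were either wild type (+/+) or homozygous for a Rorb null allele (Rorb-/-), and either lacked or carried CrxpNrl, a transgene that places Nrl under the promoter of Crx. Retinas came from mice of postnatal day 14 (P14) or 28 (P28), in 8 groups: P14 and P28 +/+, Rorb-/-, +/+;CrxpNrl and Rorb-/-;CrxpNrl. Every group had 4 mice except P28 +/+;CrxpNrl, which had 3. The labels give no strain and no sex, and do not say which part of Rorb is deleted. The Crx promoter is active in photoreceptors and their precursors, so the transgene is aimed at those cells and not at the other neurons of the retina.

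Rods are the photoreceptors of dim light and the most numerous cells of the mouse retina. Their fate depends on a chain of transcription factors in which the nuclear receptor RORβ acts before the leucine zipper factor NRL, and precursors without NRL take on cone properties. RORβ is also needed outside the rod lineage, for horizontal cells and for amacrine cells, the inhibitory interneurons of the inner retina. A gene that falls in a whole retina without Rorb may therefore belong to any of these cells, and in RNA of a whole tissue fewer cells of a type and less RNA per cell cannot be told apart.

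All values below are deposited log2 signals, so a difference of 1 unit is a 2-fold difference in signal. A difference is that between the log2 means of 2 groups, given ± SE as estimated by limma with all 31 arrays in the model, and a gene is called higher or lower at a Benjamini-Hochberg adjusted p under 0.05 over all 18193 genes. Array medians lay between 5.84 and 5.91, and their lower quartiles between 3.98 and 4.05. A signal at or under that quartile has little room to fall, so a fall that ends there is at least as large as printed. Where nothing else is said, p-values measure the spread between mice.

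The labels were first set against the genes they concern. The Rorb probe set gave 9.82 in P14 Rorb-/- against 10.97 in +/+ and 9.57 against 10.58 at P28, a difference of -1.15 ± 0.19 and of -1.01 ± 0.19 (limma adjusted p = 2.29e-05 and 0.000117). Nrl signals in Rorb-/-;CrxpNrl mice were 11.90, 11.33, 11.29 and 12.28 at P14, above the 8.78, 8.84, 10.55 and 10.54 of Rorb-/-. At P28 they were 11.63, 11.86, 9.39 and 10.44 against 9.74, 8.70, 9.72 and 9.97. In +/+ mice the transgene came with no higher Nrl signal, -0.11 ± 0.40 at P14 and -0.04 ± 0.43 at P28 (limma adjusted p = 0.987 and 0.994). The Nrl means of +/+ mice, 13.32 and 13.26, lay near the array maxima of 14.12 to 14.34, so a rise could be hard to see. Whether the Nrl probe set reads the RNA of the transgene is not given in the sources used here, so an Nrl signal below may be that of the endogenous gene, of the transgene or of both. The P28 mouse at 9.39 (replicate 3) thus lay within the range of mice without the transgene for Nrl. Its mean over 13 cone genes was 7.58, within the 7.42 to 8.40 of its own group and below the 11.48 to 11.72 of P28 Rorb-/-. The P28 recoveries and recovered shares below are given with and without it. Leaving out a mouse for its low Nrl tends to raise the recovery of a gene that follows Nrl. The values without it are therefore not the better estimate.

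The working name for these genes was rod-enriched, and the arrays do not single out rods for them. Over the 31 arrays each of the 8 genes followed the mean of 15 rod phototransduction genes with a Pearson r of 0.85 to 0.93. Each followed the mean of 15 amacrine genes with an r of 0.87 to 0.98, and for all but Pdzph1 (0.93 with rods, 0.87 with amacrine cells) the second value was the higher. With the mean of 6 horizontal cell genes r was 0.80 to 0.92, so the arrays do not single out amacrine cells either. These correlations are descriptions, since the 3 lists and the 8 genes separate Rorb-/- from +/+ mice on the same arrays. The genes are therefore called here by their rule, as genes with large falls without Rorb.

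Promoter sequences, the 250 bases before the annotated start in RefSeq GRCm38.p6, were available for 5 of the 8 genes. Aqp1 and Nt5e are shown because Aqp1 was called higher with the transgene at P14 and Nt5e at neither age, and Pdzph1 because it holds matches to a photoreceptor motif. Nt5e lies on chromosome 9 at 88327609 to 88372089, Aqp1 on chromosome 6 at 55336299 to 55348555 and Pdzph1 on chromosome 17 at 58878808 to 58991375, all protein-coding. The stretches are chr9:88327359-88327608 on the plus strand, chr6:55336049-55336298 on the plus strand and chr17:58991376-58991625 on the minus strand, each written 5′ to 3′ in the direction of its gene. Capitals mark the letters TAATC or its reverse complement GATTA, the core bound by CRX.
Nt5e: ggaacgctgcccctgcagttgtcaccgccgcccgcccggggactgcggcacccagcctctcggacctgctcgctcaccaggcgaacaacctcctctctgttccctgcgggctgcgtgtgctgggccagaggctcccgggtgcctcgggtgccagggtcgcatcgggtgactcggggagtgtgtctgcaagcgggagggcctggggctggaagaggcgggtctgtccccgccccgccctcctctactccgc
Aqp1: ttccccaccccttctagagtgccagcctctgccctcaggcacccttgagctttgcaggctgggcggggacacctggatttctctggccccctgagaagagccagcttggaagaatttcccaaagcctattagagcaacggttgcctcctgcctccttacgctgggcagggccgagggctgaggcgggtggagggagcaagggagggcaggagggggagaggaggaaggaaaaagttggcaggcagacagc
Pdzph1: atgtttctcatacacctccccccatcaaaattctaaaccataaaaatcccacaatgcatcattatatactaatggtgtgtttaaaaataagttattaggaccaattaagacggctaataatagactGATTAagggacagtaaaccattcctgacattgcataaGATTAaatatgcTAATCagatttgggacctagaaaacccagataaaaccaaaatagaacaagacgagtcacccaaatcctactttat

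Of 27025 promoters of the same length, 20.2% hold TAATC on either strand. Among the 5 sequences only Pdzph1 does, with 3 matches whose bases nearest the start site lie at -120, -83 and -71. TGCTGA, a core of the sequence bound by NRL, stands in 15.8% of promoters and in 0 of the 5. AGGTCA, the core bound by ROR receptors, stands in 13.8% and in 0 of the 5. Its shorter form GGTCA, which any AGGTCA match contains, stands in 34.9% and was matched once, in Plpp2 (chr10:79533788-79534037, minus strand) at -119 to -115. C1ql2 held none of these letters in this window. Kcnj14, Sh2d1a and Sbspon had no entry.

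Nt5e had the largest fall of all genes at both ages. It encodes CD73, the ecto-enzyme that turns extracellular AMP into adenosine, and CD73 is a surface marker used to sort rod precursors. At P14 its signals were 10.39, 10.65, 10.56 and 10.59 in +/+ and 4.61, 4.17, 3.53 and 4.50 in Rorb-/-. At P28 they were 10.41, 10.53, 10.67 and 10.54 in +/+ and 4.17, 4.52, 4.28 and 4.62 in Rorb-/-. The groups lay more than 5 units apart with no overlap, a difference of -6.34 ± 0.16 at P14 and -6.14 ± 0.16 at P28, which leaves 1.23% and 1.41% of the wild-type signal. With the transgene Rorb-/- mice gave 4.17, 4.36, 3.76 and 3.71 at P14 and 3.93, 3.75, 3.93 and 3.66 at P28. All of these lie at the bottom of the array scale, and none approaches wild type.

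Kcnj14, an inward rectifier potassium channel subunit, had rank 3 among falls at P14 and rank 4 at P28. Its P14 signals were 10.89, 11.00, 11.32 and 11.22 in +/+, and 4.46, 4.94, 4.98 and 6.54 in Rorb-/-. In Rorb-/-;CrxpNrl they were 7.86, 6.30, 6.85 and 7.58. One Rorb-/- mouse (6.54) overlapped the lowest transgenic mouse, and all others were separated. At P28 the signals were 11.16, 11.66, 11.50 and 11.65 in +/+, 6.06, 6.45, 6.37 and 7.04 in Rorb-/-, and 9.26, 9.01, 6.97 and 7.61 in Rorb-/-;CrxpNrl. The lowest transgenic mouse was replicate 3, the one with low Nrl, and it lay just under the highest Rorb-/- mouse. The fall was -5.88 ± 0.39 at P14 and -5.01 ± 0.39 at P28.

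Aqp1, the water channel aquaporin 1, showed the same order of groups with a smaller fall. Its P14 signals were 9.18, 9.65, 9.70 and 9.51 in +/+, 5.07, 5.34, 4.99 and 5.76 in Rorb-/-, and 7.89, 5.91, 6.53 and 7.31 in Rorb-/-;CrxpNrl. All 4 transgenic mice lay above all 4 Rorb-/- mice and below all wild-type mice. At P28 the signals were 9.63, 9.01, 9.73 and 9.94 in +/+, 6.49, 7.16, 6.89 and 6.91 in Rorb-/-, and 8.90, 8.83, 6.47 and 7.22 in Rorb-/-;CrxpNrl. Here the transgenic mice split into 2 near wild type and 2 near Rorb-/-. The fall was -4.22 ± 0.39 at P14 and -2.72 ± 0.39 at P28.

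Plpp2, a lipid phosphate phosphatase that removes phosphate from phosphatidic acid and lysophosphatidic acid, gave 10.94, 11.14, 10.93 and 10.94 in P14 +/+ and 6.69, 6.61, 6.43 and 6.34 in Rorb-/-. At P28 it gave 10.23, 9.57, 10.29 and 10.37 in +/+ and 7.15, 7.65, 7.20 and 7.38 in Rorb-/-. The gap narrowed from -4.47 ± 0.19 to -2.77 ± 0.19, with wild type lower and the knockout higher at the later age. Rorb-/-;CrxpNrl mice gave 7.38, 6.93, 6.49 and 7.27 at P14 and 7.36, 7.23, 6.54 and 7.10 at P28. At P14, 3 of these 4 mice lay above every Rorb-/- mouse, and at P28 the groups overlapped.

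Sh2d1a encodes SAP, an adaptor of SLAM-family receptors known from T and NK lymphocytes. Its signals were 5.71, 6.76, 6.74 and 6.57 in P14 +/+ and 7.98, 7.83, 8.18 and 8.20 in P28 +/+. In Rorb-/- they were 3.28, 3.06, 3.15 and 3.03 at P14 and 2.97, 2.92, 3.08 and 3.24 at P28, under the array's lower quartile in every mouse. The fall of -3.32 ± 0.20 at P14 and -5.00 ± 0.20 at P28 is therefore a lower bound at both ages. Rorb-/-;CrxpNrl mice were at the same floor, between 2.88 and 3.24 at P14 and between 2.66 and 3.45 at P28. The 9 measured genes of a list of 12 T and NK lymphocyte markers had array means of 4.03 to 4.23 over all 31 mice, near the lower quartile, and 0 of 9 were called in Rorb-/- against +/+ at either age. In the same comparison 16.0% of all genes were called higher and 13.9% lower at P14, and 15.9% and 15.2% at P28.

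Pdzph1 (PDZ and pleckstrin homology domains 1) had the largest standard error of the 8 in the model, and the widest spread of the 8 in both P28 knockout groups (SD 1.06 without and 1.60 with the transgene). Its signals were 10.04, 9.78, 10.12 and 10.07 in P14 +/+ and 6.40, 6.56, 6.41 and 7.08 in Rorb-/-. At P28 they were 10.72, 10.25, 10.68 and 10.80 in +/+ and 5.43, 6.39, 7.63 and 7.59 in Rorb-/-. Rorb-/-;CrxpNrl mice spread from 5.72 to 7.73 at P14 and from 4.16 to 7.69 at P28, around the Rorb-/- values and with the lowest mouse below all of them. The fall was -3.39 ± 0.53 at P14 and -3.85 ± 0.53 at P28.

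Sbspon encodes a secreted protein with somatomedin B and thrombospondin type 1 domains. Its signals were 8.57, 8.87, 8.31 and 8.19 in P14 +/+, 4.04, 4.36, 4.38 and 3.86 in Rorb-/-, and 5.37, 6.08, 6.00 and 3.74 in Rorb-/-;CrxpNrl. At P14, 3 of the 4 transgenic mice lay above every Rorb-/- mouse and 1 lay below them all. At P28 the signals were 8.02, 8.17, 8.20 and 8.10 in +/+, 4.75, 5.76, 4.58 and 4.30 in Rorb-/-, and 5.39, 6.78, 4.83 and 3.96 in Rorb-/-;CrxpNrl, with wide overlap of the last 2 groups. The fall was -4.32 ± 0.42 at P14 and -3.27 ± 0.42 at P28.

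C1ql2, a secreted C1q-domain protein of the family that organises synapses, had the smallest standard error of the 8 in the model. It gave 8.78, 8.77, 8.91 and 9.03 in P14 +/+, 4.68, 4.46, 4.80 and 5.01 in Rorb-/-, and 5.27, 4.94, 4.43 and 4.72 in Rorb-/-;CrxpNrl. At P28 it gave 8.70, 8.75, 8.68 and 8.62 in +/+, 5.15, 4.74, 4.87 and 5.24 in Rorb-/-, and 5.25, 5.44, 4.84 and 5.46 in Rorb-/-;CrxpNrl. The fall was -4.14 ± 0.15 at P14 and -3.69 ± 0.15 at P28, and transgenic knockout mice overlapped knockout mice at both ages.

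**Figure D1:**
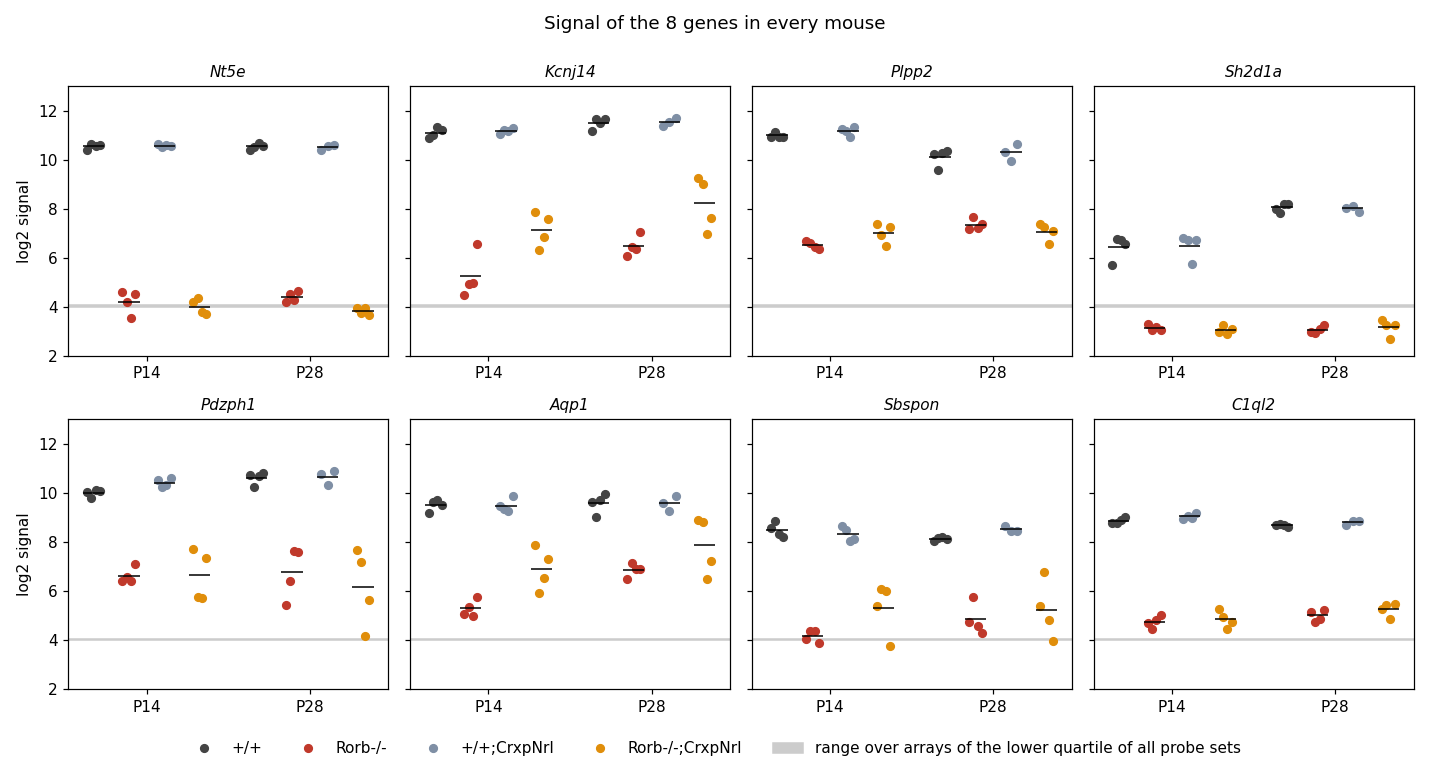
Each panel shows 1 gene, with the log2 signal of every mouse on the vertical axis and the 8 groups along the horizontal axis (points are mice, the short line is the group mean, and the grey band is the range over arrays of the lower quartile of signals, 3.98 to 4.05). Red (Rorb-/-) lies below black (+/+) in every panel, and orange (Rorb-/-;CrxpNrl) rises clear of red mainly for Kcnj14 and for Aqp1 at P14.

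Probe sets of the same gene did not all behave alike. Nt5e has 3, of which a second fell from 8.13 to 5.41 at P14 and the third had group means between 4.15 and 4.40 throughout. Plpp2 has 2, of which the second had group means between 5.48 and 5.77. Both probe sets of Sbspon fell, the second from 8.24 to 4.38 at P14. The values above are of the brightest probe set of each gene, and averaging all probe sets of a gene gives a P14 fall of -3.04 for Nt5e and -2.24 for Plpp2.

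Whether the transgene brought the genes back was asked by comparing Rorb-/-;CrxpNrl with Rorb-/- mice. This comparison shares the Rorb-/- arrays with the one that chose the genes. Genes picked for low signals on those arrays lean towards a rise, so its p-values and counts are not independent of the choice. At P14, Kcnj14 and Aqp1 rose, 2 of the 8, and 0 of the 8 fell, where 2.05% of all genes were called higher, 3.25% lower and thus 5.3% in all. At P28, Kcnj14 rose and Nt5e fell, 1 of 8 each way, where 11.7% of all genes were called higher, 7.47% lower and 19.2% in all. Kcnj14 was 3.77-fold higher with the transgene at P14 (1.92 ± 0.39, limma adjusted p = 0.00199) and 3.33-fold higher at P28 (1.73 ± 0.39, adjusted p = 0.00184). Without the low-Nrl mouse the P28 difference of Kcnj14 was 2.15 (adjusted p = 0.000202).

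Aqp1 was 3.08-fold higher with the transgene at P14 (1.62 ± 0.39, limma adjusted p = 0.00917). At P28 it was 0.99 ± 0.39 higher and missed the threshold (adjusted p = 0.0757, 95% interval 0.20 to 1.79). Leaving out replicate 3, the low-Nrl mouse, gave 1.45 (adjusted p = 0.00536), and leaving out replicate 4 gave 1.20 (adjusted p = 0.0496). The P28 result for Aqp1 thus changes its call with either of the 2 low mice.

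Sbspon came next at P14, 1.13 ± 0.42 higher, without passing (limma adjusted p = 0.134, 95% interval 0.27 to 2.00). It was 1.65 (adjusted p = 0.00828) without replicate 4, the 1 transgenic mouse below all Rorb-/- mice. At P28 the difference was 0.39 ± 0.42 (adjusted p = 0.612). Plpp2 was 0.50 ± 0.19 higher at P14 (adjusted p = 0.139) and 0.68 (adjusted p = 0.0329) without replicate 3, and its P28 difference was -0.29 ± 0.19 (adjusted p = 0.34) and -0.11 (adjusted p = 0.777) without the low-Nrl mouse. For Sbspon the P28 value without that mouse was 0.53 (adjusted p = 0.542).

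The remaining genes gave differences near 0. At P14 the difference was 0.10 ± 0.15 for C1ql2, 0.02 ± 0.53 for Pdzph1, -0.08 ± 0.20 for Sh2d1a and -0.20 ± 0.16 for Nt5e. At P28 it was 0.25 ± 0.15 for C1ql2, 0.10 ± 0.20 for Sh2d1a and -0.59 ± 0.53 for Pdzph1, and limma called none of these at either age. Without the low-Nrl mouse the P28 difference of Pdzph1 was 0.09 (adjusted p = 0.941), so its value below 0 rests on that mouse. C1ql2 gave 0.38 (adjusted p = 0.0767) and Sh2d1a 0.26 (adjusted p = 0.481) without it. The 95% intervals set what a missed difference could be: -0.19 to 0.40 for C1ql2 at P14 is narrow, and -1.06 to 1.10 for Pdzph1 is not. The P28 fall of Nt5e with the transgene, -0.58 ± 0.16 (adjusted p = 0.00925), is a difference between signals at the bottom of the scale, and with the mean of its probe sets it was -0.20 (adjusted p = 0.141). Without the low-Nrl mouse it was -0.62 (adjusted p = 0.015).

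**Figure D2:**
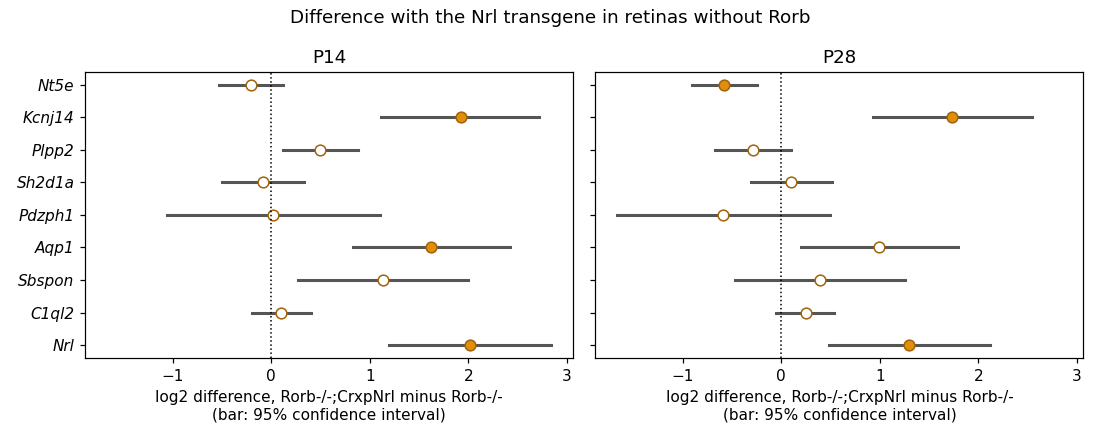
Points show the log2 difference of Rorb-/-;CrxpNrl from Rorb-/- mice for each gene and for Nrl at P14 and P28, with bars for the 95% confidence interval; filled points were called by limma. Kcnj14 lies well above 0 at both ages (1.92 and 1.73), Aqp1 at 1.62 and 0.99, and Nt5e at or below 0.

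Set against the size of the fall, the recovered share of the log2 difference at P14 was 38.4% for Aqp1, 32.6% for Kcnj14, 26.2% for Sbspon and 11.2% for Plpp2. It was 2.5% for C1ql2 and 0.644% for Pdzph1. For the Nrl probe set it was 55.6%. At P28 Aqp1 (36.5%) and Kcnj14 (34.6%) again led, beside 34.8% for Nrl, followed by Sbspon (12.0%) and C1ql2 (6.69%), with Plpp2 at -10.3% and Pdzph1 at -15.2%. Without the low-Nrl mouse these P28 shares were 53.5% for Aqp1, 42.9% for Kcnj14, 47.6% for Nrl, 16.2% for Sbspon, 10.4% for C1ql2, -4.11% for Plpp2 and 2.23% for Pdzph1, the last with its sign turned. Nt5e and Sh2d1a lay at the bottom of the scale with and without the transgene, so no share is given for them. Sbspon also lay near the lower quartile in P14 Rorb-/- (mean 4.16), so its P14 share of 26.2% is less certain. In signal, Kcnj14 went from 1.7% to 6.43% of wild type at P14 and Aqp1 from 5.36% to 16.5%.

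Other genes with falls of the same size can be set beside the 8. At P14, 22 other genes fell by at least as much as the smallest fall among the 8 (-3.32), and 12 of them (54.5%) were called higher with the transgene, with a median of 37.0% of the fall recovered against 6.83% for the 8. At P28, 42 other genes fell by at least as much (-2.72), and 22 of them (52.4%) were called higher, with a median of 19.3% against 4.35%. Without the low-Nrl mouse the P28 medians were 28.7% and 7.83%. The choice of the 8 had left out phototransduction genes and these sets had not. Without the 5 genes at each age that stand on the rod phototransduction or cone lists, 7 of 17 at P14 (median 13.1%) and 17 of 37 at P28 (median 17.2%) were called higher. All were chosen by the same fall, the medians of the 8 include Nt5e and Sh2d1a at the bottom of the scale, and the difference between the 8 and the other genes was not tested. Of the 8 rod phototransduction genes that fell by 1 unit or more at P14, 6 were called higher with the transgene and their median recovery was 66.9%. Of 9 amacrine genes that fell as much, 0 were called higher and the median was 7.84%. Of all genes 2.05% were called higher with the transgene at P14 and 11.7% at P28.

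At P28 the same count was 5 of 10 rod genes, with a median of 31.9% of the fall recovered, and 2 of 9 amacrine genes, with a median of 6.53%. Without the low-Nrl mouse these medians were 42.8% and 7.19%. Over the whole lists, 6 of 15 rod genes rose with the transgene at P14, and 5 rose and 3 fell at P28. Of all genes 2.05% were called higher and 3.25% lower at P14, and 11.7% and 7.47% at P28, so counts at the 2 ages have unlike backgrounds. Of the 15 amacrine genes 0 were called at P14 by limma and 4 rose at P28. At P14 the shares of the amacrine genes ran from -9.11% to 18.4%, a range that holds Plpp2, C1ql2 and Pdzph1. Kcnj14, Aqp1 and Sbspon lay above it, within the range of the rod genes and below their median, with the limit given above for Sbspon. At P28 the ranges of the lists overlapped (-9.11% to 54.4% for amacrine and -102% to 52.4% for rod genes), and Kcnj14, Aqp1, Sbspon and C1ql2 lay within both.

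**Figure D3:**
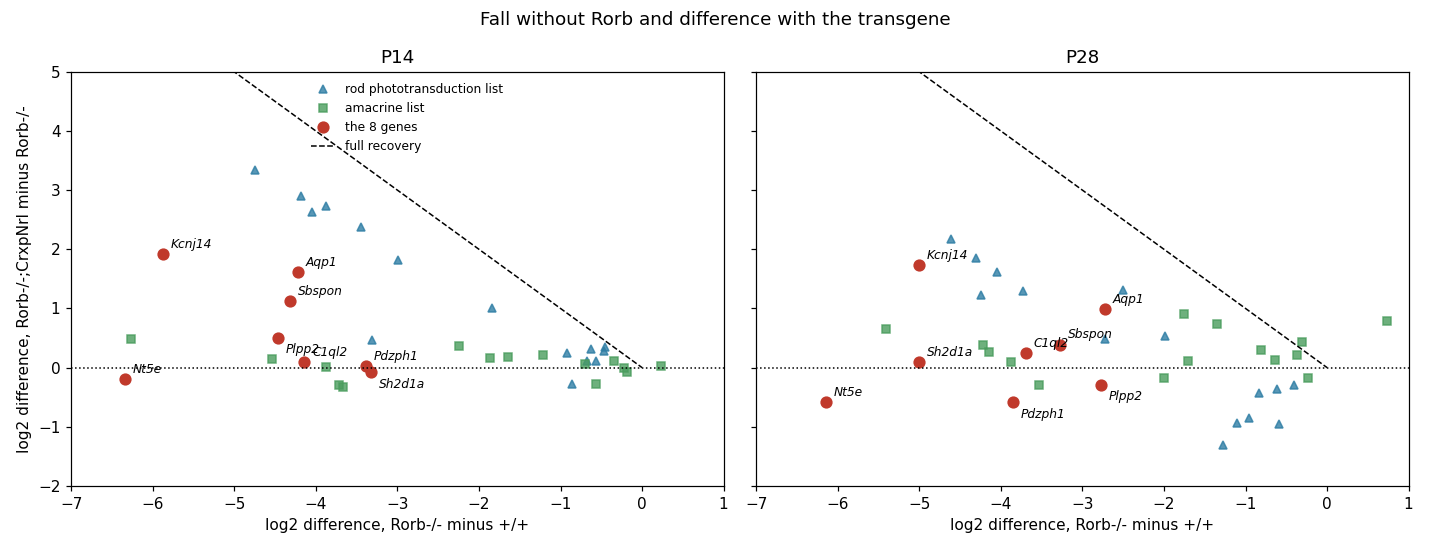
The horizontal axis is the log2 difference of Rorb-/- from +/+ mice and the vertical axis that of Rorb-/-;CrxpNrl from Rorb-/- mice, at P14 (left) and P28 (right), for the 8 genes (red), 15 rod phototransduction genes (blue triangles) and 15 amacrine genes (green squares). The dashed line marks full recovery; both axes share the Rorb-/- arrays, and the 8 genes were chosen for their place on the horizontal axis. At P14 most rod genes with large falls lie nearer the dashed line than the 8 genes do.

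The recoveries of the 8 genes were also compared with each other, in all 28 pairs at each age, by an exact two-sided permutation test of 4 transgenic against 4 knockout mice. This test can give no p below 0.0286. That smallest value was reached by 5 pairs at P14, among them Nt5e against Aqp1 (-1.82) and Kcnj14 against Pdzph1 (1.89). It was reached by 9 pairs at P28, of which 6 set Kcnj14 above another gene. Over the 56 tests at least 33 pairs would have had to reach it for any to pass 0.05, and the adjusted p of the 14 pairs was 0.114. With 4 against 4 mice and 56 tests, this test could thus neither show nor deny a difference between genes.

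Whether recovery differed between the ages was tested directly. In the contrast of the P28 with the P14 difference, limma called 0 of the 8 genes, where 1.48% of all genes were called. At an unadjusted p under 0.05 there was 1, Plpp2 (-0.79 ± 0.26, limma adjusted p = 0.125). The Plpp2 value was -0.89 (adjusted p = 0.0393) without P28 Rorb-/-;CrxpNrl replicate 1. Aqp1 passed at P14 and not at P28, and the difference between those ages was itself not called (-0.63 ± 0.55, adjusted p = 0.661).

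The test of the Rorb effect that owes nothing to the choice of genes is between the 2 transgenic genotypes, which share no mouse with the choosing comparison. All 8 genes were lower in Rorb-/-;CrxpNrl than in +/+;CrxpNrl at P14, where 13.8% of all genes were called lower and 16.3% higher, and all 8 at P28, where 15.9% were lower and 20.7% higher. The groups did not overlap for any of the 8 genes at either age, and the share of all genes without overlap was not counted. At P14 the differences ran from -2.57 ± 0.39 for Aqp1 (limma adjusted p = 6.4e-06) to -6.57 ± 0.16 for Nt5e (adjusted p = 3.48e-22). At P28 they ran from -1.71 ± 0.42 for Aqp1 (adjusted p = 0.0017) to -6.70 ± 0.17 for Nt5e (adjusted p = 1.64e-21). Kcnj14 was -4.03 ± 0.39 and -3.34 ± 0.42 and Sbspon -3.03 ± 0.42 and -3.29 ± 0.46 at the 2 ages.

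The other genes in that comparison differed by -4.17 ± 0.19 at P14 and -3.24 ± 0.20 at P28 (Plpp2), -4.21 ± 0.15 and -3.56 ± 0.16 (C1ql2), -3.79 ± 0.53 and -4.49 ± 0.57 (Pdzph1), and -3.44 ± 0.20 and -4.86 ± 0.22 (Sh2d1a). Leaving out any 1 mouse kept 8 of 8 at both ages. Against non-transgenic +/+ mice, whose arrays also served to choose the genes, Rorb-/-;CrxpNrl mice were likewise lower for 8 of 8 at P14 (13.3% of all genes called lower) and at P28 (18.9%). The smallest remaining gap was that of Aqp1, -2.60 ± 0.39 at P14 and -1.73 ± 0.39 at P28, which leaves 16.5% and 30.2% of the wild-type signal. The largest was that of Nt5e, at 1.07% and 0.948%.

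In retinas with Rorb no call was made for any of the 8 genes when the transgene was added. The Nrl signal, near the top of the array scale, was not higher there either. The +/+ arrays also served to choose the genes. Comparing +/+;CrxpNrl with +/+ mice, limma called 0 of the 8 at either age and 0 had an unadjusted p under 0.05, where 0.126% of all genes were called at P14 and 0.22% at P28. The differences ran from -0.16 ± 0.42 (Sbspon) to 0.41 ± 0.53 (Pdzph1) at P14 and from -0.04 ± 0.22 (Sh2d1a) to 0.41 ± 0.46 (Sbspon) at P28. Pdzph1 at P14 and Sbspon at P28 were higher in every transgenic mouse than in any +/+ mouse. For the other genes at each age the groups overlapped, so an absent call is not proof of no difference. Of 13 cone genes, 9 were lower in these transgenic mice at P14 and 12 at P28.

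Within Rorb-/- retinas the mice with more Nrl had more of some of these genes. Over the 16 Rorb-/- arrays with and without the transgene, Pearson r with Nrl was 0.69 for Kcnj14 (Spearman 0.63) and 0.55 for Aqp1 (0.51), against 0.17 for Plpp2 (0.14) and -0.52 for Nt5e (-0.51). After taking each array's deviation from its group mean, r was 0.78 for Kcnj14, 0.69 for Pdzph1, 0.64 for Aqp1, 0.61 for C1ql2 and 0.50 for Sh2d1a. It was 0.27 for Plpp2, 0.02 for Sbspon and -0.31 for Nt5e. Sbspon gave 0.32 over all 16 (0.17). Without the 2 arrays farthest in Nrl the values over the rest became 0.73 for Kcnj14, 0.65 for Aqp1, 0.35 for Plpp2 and 0.71 for Sbspon, so the value of Sbspon turns on those 2 arrays. The arrays share age and genotype groups, so these values describe them and carry no p.

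The order of mice within a group can be described in the same way. Among the 4 P28 Rorb-/-;CrxpNrl mice, replicates 1 and 2 had high Nrl and replicates 3 and 4 low Nrl, and the same 2 mice were low for 6 of the 8 genes, all but Nt5e and C1ql2. Their spread was 3.53 units for Pdzph1, 2.82 for Sbspon, 2.43 for Aqp1 and 2.29 for Kcnj14, against 0.27 for Nt5e. The mean of the rod phototransduction list followed, with 11.49 and 11.02 in replicates 1 and 2 and 9.14 and 9.88 in replicates 3 and 4. At P14 the 2 mice with low Nrl (replicates 2 and 3) were the low pair for Kcnj14, Plpp2, Pdzph1 and Aqp1. How many of all genes share these low pairs was not counted, so the counts are not shown to be particular to the 8 genes. The part of this spread in the recovery of each gene was not tested.

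**Figure D4:**
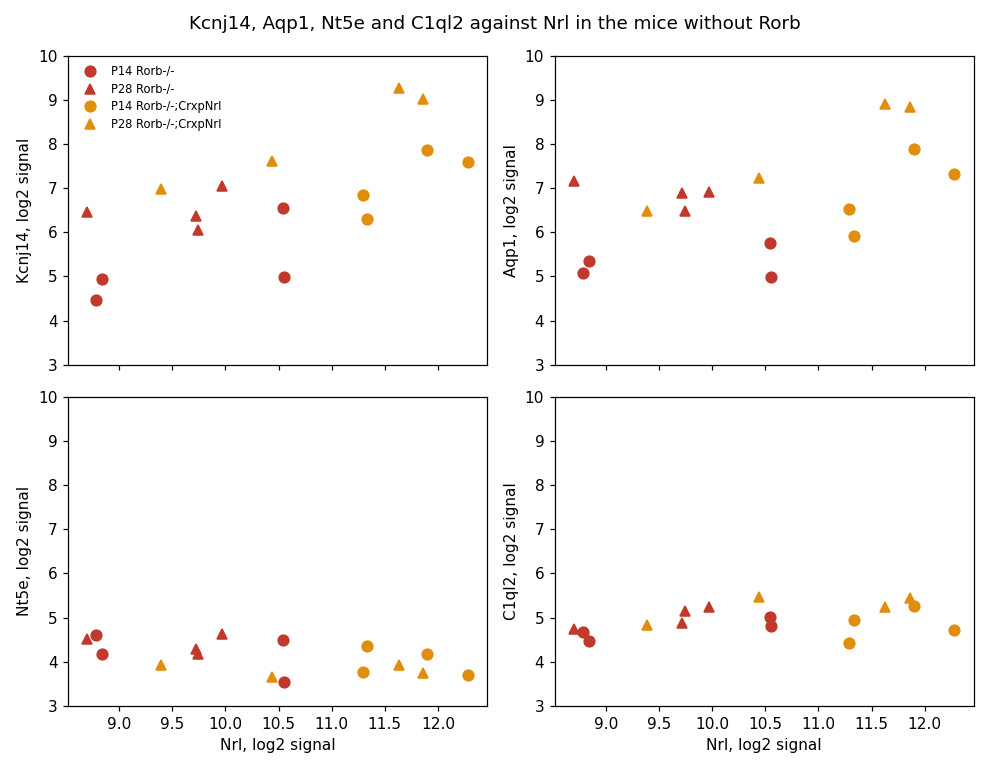
Each point is 1 Rorb-/- mouse without (red) or with (orange) the transgene at P14 (circles) or P28 (triangles), with the log2 signal of Nrl on the horizontal axis and that of Kcnj14, Aqp1, Nt5e or C1ql2 on the vertical axis. Kcnj14 and Aqp1 are highest in mice with Nrl above 11, while Nt5e stays under 5 in all 16 mice.

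The ages gave different courses for the 8 genes. In +/+ mice Sh2d1a rose from P14 to P28 by 1.60 ± 0.20, a 3.04-fold difference (limma adjusted p = 3.16e-06), and Plpp2 fell by -0.87 ± 0.19 (adjusted p = 0.00192). These 2 of 8 compare with 13.7% of all genes called in either direction. The +/+ arrays also served to choose the genes, so these p-values are not independent of the choice. In +/+;CrxpNrl mice, which played no part in the choice, Sh2d1a rose by 1.52 ± 0.22 (adjusted p = 2.59e-05) and Plpp2 changed by -0.88 ± 0.20 (adjusted p = 0.00458), 2 of 8 against 9.85% of all genes. The Plpp2 value was -0.70 (adjusted p = 0.0538) without P28 +/+;CrxpNrl replicate 2. Nt5e, Kcnj14, Aqp1, Sbspon, Pdzph1 and C1ql2 were not called in either genotype. With the compared groups alone in the model, Pdzph1 in +/+ (0.61, adjusted p = 0.00636) and Kcnj14 in +/+;CrxpNrl (0.38, adjusted p = 0.0153) were called higher at P28.

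In Rorb-/- mice the pattern with age was another one. Aqp1 rose by 1.57 ± 0.39 (limma adjusted p = 0.00555), Kcnj14 by 1.25 ± 0.39 (adjusted p = 0.0296) and Plpp2 by 0.83 ± 0.19 (adjusted p = 0.00258), 3 of 8 where 14.9% of all genes were called. The Rorb-/- arrays likewise served to choose the genes, so these p-values are not independent of the choice either. The Kcnj14 call was lost without P14 replicate 1 (0.99, adjusted p = 0.127), 2 (1.15, 0.0824) or 3 (1.17, 0.0809) and without P28 replicate 2 (1.26, 0.0534) or 4 (1.06, 0.102). Sh2d1a, which rose in wild type, gave -0.08 ± 0.20. In Rorb-/-;CrxpNrl mice Kcnj14 rose by 1.07 ± 0.39 (adjusted p = 0.0408) and C1ql2 by 0.41 ± 0.15 (adjusted p = 0.035), 2 of 8 against 28.9% of all genes.

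Those last 2 calls are fragile. Kcnj14 lost its call without P14 Rorb-/-;CrxpNrl replicate 2 (0.78) or 3 (0.97) and without P28 replicate 1 (0.72) or 2 (0.80), with adjusted p from 0.104 to 0.183. C1ql2 lost its call without P14 replicate 3 (0.27) or 4 (0.37) and without P28 replicate 1 (0.41), 2 (0.34) or 4 (0.34), with adjusted p from 0.0547 to 0.187. Aqp1, at 0.94 ± 0.39 (adjusted p = 0.0711), was called without P14 replicate 1 (1.27, adjusted p = 0.0166) and without P28 replicate 3 (1.40, 0.00414) or 4 (1.15, 0.0405).

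Whether the Rorb effect itself changed with age was tested between the transgenic genotypes, in a contrast added after the values had been seen. It differed between ages for 3 of 8 genes, where 12.5% of all genes were called. For Sh2d1a the gap widened by -1.41 ± 0.30 (limma adjusted p = 0.00205), with +/+;CrxpNrl rising and Rorb-/-;CrxpNrl staying under the lower quartile. For Plpp2 it narrowed by 0.92 ± 0.28 (adjusted p = 0.025) and for C1ql2 by 0.65 ± 0.21 (adjusted p = 0.042). The Plpp2 call was lost without P14 +/+;CrxpNrl replicate 4 (0.87, adjusted p = 0.0509), P14 Rorb-/-;CrxpNrl replicate 3 (0.75, 0.0634) or P28 +/+;CrxpNrl replicate 2 (0.74, 0.104). The C1ql2 call was lost without any 1 of 10 mice, with values of 0.52 to 0.68 and adjusted p of 0.054 to 0.108. These were replicates 2, 3 and 4 of P14 and 1, 2 and 3 of P28 +/+;CrxpNrl, and replicates 3 and 4 of P14 and 2 and 4 of P28 Rorb-/-;CrxpNrl.

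Across all 31 arrays the 8 genes followed each other with a Pearson r from 0.84 (Sh2d1a with Aqp1) to 0.99 (Nt5e with C1ql2). The genes most like each were listed, 3 per gene, and the points share the same mice and the same genotype groups. Nearest to Nt5e were Tfap2a (0.994), Tfap2c (0.992) and Qrfpr (0.990), and nearest to C1ql2 were Tfap2b (0.991), Tfap2c (0.987) and Tfap2a (0.986). The Tfap2 genes encode AP-2 transcription factors that mark amacrine cells. Nearest to Plpp2 were Pla2g7 (0.973), Tfap2b and Slc18a3 (both 0.972), the last being the vesicular acetylcholine transporter of starburst amacrine cells.

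Kcnj14 and Aqp1 shared their nearest genes, Cdr2 (0.985 and 0.959) and Galnt7 (0.977 and 0.956), followed by Gpsm2 (0.976) for Kcnj14 and by Esrrb (0.952), an orphan nuclear receptor expressed in rods, for Aqp1. Nearest to Sh2d1a were Hcls1, Frmd5 (both 0.971) and Wdr89 (0.970). Nearest to Pdzph1 were Slco4a1 (0.968), Dohh (0.966) and Adipor1 (0.963), and nearest to Sbspon were Taok3 (0.960), Lifr (0.949) and Macir (0.945). The mean of the 8 genes was nearest to Grtp1 (0.983), Pla2g7 (0.982) and Tfap2b (0.981).

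Some of these neighbours and other photoreceptor regulators can be set beside the recovery of the 8 genes. Between Rorb-/-;CrxpNrl and Rorb-/- mice Tfap2a differed by 0.01 ± 0.13 at P14 and by -0.30 ± 0.13 at P28, and Tfap2b by 0.15 ± 0.14 and 0.39 ± 0.14, with limma adjusted p of 0.0513 or more. Esrrb rose by 2.34 ± 0.40 at P14 (adjusted p = 0.000262), and at P28 its difference was 0.11 ± 0.40 (adjusted p = 0.91). Samd11, another transcriptional regulator of rods, rose at both ages, by 2.19 ± 0.29 (adjusted p = 4.23e-06) and 1.68 ± 0.29 (adjusted p = 9.09e-05).

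The relatives of each gene were measured too. Their counts between the transgenic genotypes stand beside 13.8% of all genes lower and 16.3% higher at P14, and 15.9% and 20.7% at P28. Their counts with the transgene in Rorb-/- mice stand beside 3.25% lower and 2.05% higher at P14, and 7.47% and 11.7% at P28. A count near those shares is no result about a family. Beside Nt5e, 12 genes of extracellular nucleotide and adenosine handling were measured. Between the transgenic genotypes 6 of the 12 were lower and 1 higher at P14, and 2 were lower and 2 higher at P28. Alpl, the tissue-nonspecific alkaline phosphatase, which also forms adenosine from AMP, differed by -1.50 ± 0.22 and -2.03 ± 0.24 (limma adjusted p = 3.32e-06 and 5.89e-08). The nucleoside transporter Slc29a2 differed by -0.67 ± 0.10 and -1.03 ± 0.11, and its relative Slc29a1 was higher at P28 by 1.08 ± 0.16 (adjusted p = 2.48e-06). With the transgene in Rorb-/- mice 0 of 12 were called at P14, and Entpd3 (0.61 ± 0.14) and Slc29a1 (0.68 ± 0.15) rose at P28.

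Beside Kcnj14, 14 other inward rectifier subunits were measured. Between the transgenic genotypes 4 of 14 were lower at P14, with Kcnj9 at -1.55 ± 0.52, Kcnj5 at -1.51 ± 0.14 and Kcnj8, the subunit of pericytes, at -1.17 ± 0.12. At P28 3 were lower and Kcnj13, known from pigment epithelium, was higher by 1.84 ± 0.29 (limma adjusted p = 9.28e-06). With the transgene in Rorb-/- mice 0 of 14 were called at P14, and Kcnj5 (0.53 ± 0.14) and Kcnj13 (0.77 ± 0.27) were called higher at P28. Blood vessel and pigment epithelium markers moved in the same comparisons: 7 of 10 in each list were lower between the transgenic genotypes at P14, and at P28 4 of 10 pigment epithelium genes were higher.

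The array means of the 10 pigment epithelium genes were 7.79 to 8.28 in P14 +/+, 5.78 to 6.31 in P14 Rorb-/- and 5.90 to 6.72 in P14 Rorb-/-;CrxpNrl. At P28 they were 5.97 to 7.39, 6.05 to 7.72 and 6.92 to 8.10. In P28 Rorb-/- against +/+, 3 of the 10 were called higher and 0 lower, where 15.9% and 15.2% of all genes were. The 10 blood vessel genes gave 7.33 to 7.54 in P14 +/+ and 6.55 to 6.92 in P14 Rorb-/-, and 6.74 to 6.86 and 6.64 to 6.87 at P28. The part of these tissues in the P14 values of Aqp1, which vessels also express, was not tested.

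Beside C1ql2, 10 measured genes of the C1q and cerebellin families included 3 that were lower and 4 that were higher between the transgenic genotypes at P14. C1ql1 differed by -2.88 ± 0.25 (limma adjusted p = 2.77e-10), Cbln2 by -1.86 ± 0.10 and Cbln4 by -1.49 ± 0.14, all secreted synaptic proteins. The complement genes C1qa, C1qb and C1qc, made by microglia, were higher by 1.59 ± 0.13, 1.57 ± 0.21 and 1.88 ± 0.16. At P28 4 were lower and 3 higher. With the transgene in Rorb-/- mice 0 of 10 were called at P14, and at P28 C1ql1 rose by 1.38 ± 0.25 (adjusted p = 0.000159) and C1ql3 fell by -1.43 ± 0.18 (adjusted p = 1.43e-06), while C1ql2 was not called.

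Beside Plpp2, 11 lipid phosphatases and related proteins gave 5 higher and 2 lower between the transgenic genotypes at P14 and 5 higher and 1 lower at P28. Plpp3, with the same enzymatic activity as Plpp2, was higher by 1.36 ± 0.10 and 1.72 ± 0.11 (limma adjusted p = 1.28e-11 and 4.32e-13), opposite to Plpp2. Beside Aqp1, 9 other aquaporins gave 2 lower at P14, with Aqp4 of Müller glia at -0.94 ± 0.11, and at P28 3 higher, with Aqp5 at 1.20 ± 0.18. Of these 9, 0 were called higher with the transgene at P14 and Aqp5 was at P28 (0.49 ± 0.17, limma adjusted p = 0.0423).

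Beside Sh2d1a, 10 measured genes of the SLAM receptors and their adaptors gave 0 lower at either age between the transgenic genotypes. Fyn, the kinase that SAP recruits, was higher by 0.46 ± 0.10 at P14 and 0.65 ± 0.11 at P28 (limma adjusted p = 0.00106 and 3.07e-05). Beside Sbspon, 10 genes with thrombospondin type 1 repeats gave 2 lower and 1 higher at P14, and 2 lower and 3 higher at P28. Spon1 was higher by 0.92 ± 0.12 and 1.50 ± 0.13, and Rspo2 lower at -1.31 ± 0.20 and -1.17 ± 0.21. Of all these relatives, C1ql1 at P14 (-2.88) and Alpl at P28 (-2.03) were the ones lower by more than the smallest difference among the 8 genes at that age (-2.57 and -1.71).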

How the data were processed

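Total RNA from both retinas of 1 mouse per sample (5 ug labelled) was hybridised to Affymetrix arrays with 45101 probe sets. The deposited values are log2 signals that the authors made with RMA, per the submitters' processing notes, with no version given; they were used as deposited. RMA takes out differences in overall level between arrays and compresses differences near background.

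Of the probe sets, 34958 had 1 gene symbol, 932 several and 9211 none; without control probe sets 34945 were used. Each of 18193 genes was represented by its brightest probe set, by mean signal. A gene that no probe set measures alone was not analysed here.

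A single limma model (a mean for each of the 8 groups, prior variance following the mean level) was fitted to the 31 arrays, with Benjamini-Hochberg adjustment over all genes. The fit was tested on simulated data. The members, the marker and family lists and the comparisons were chosen with earlier results of these data known. Named genes are Rorb, Nrl, the 8 members, the 3 genes most like each by Pearson r, and from each list the members with the largest differences, up to 4; C1qa, C1qb, C1qc, Samd11, Esrrb, Tfap2a, Tfap2b, Slc29a1, Plpp3, Fyn and the relatives named for a rise with the transgene were picked after their values were seen, whether or not that rule also gives them. Alternatives were another scaling, another summary of probe sets, filters, the prior, array weights, a block for replicate numbers, fits on single pairs of groups, and leaving out single mice.

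The labels number the mice of each group. Whether equal numbers pair mice was checked by correlating their deviations from the mean of their group. The correlations were 0.11 to 0.29 for P14 Rorb-/- and +/+, 0.21 to 0.37 for P28 +/+;CrxpNrl and +/+, and 0.23 to 0.3 for +/+;CrxpNrl at P28 and P14, above 0.1 in each pair. Elsewhere at least 1 pair was at or under 0.1, and no block was used. The number of arrays limits the precision. R 4.3.3, limma 3.58.1, Python 3.11.15, pandas 2.3.3, numpy 2.4.6 and scipy 1.17.1 were used.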

Additional observations from a re-analysis of the deposited data

Results flagged for a closer look

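In 56 combinations of a gene and a group of 4 mice, 2 mice stood apart from the rest of their group by Dixon's test, where chance flags about 1 in 20 groups. Plpp2 in P14 +/+ replicate 2 was the highest of its group at 11.14, above 3 mice at 10.93 to 10.94, a gap that is small beside the fall of this gene. Sh2d1a in P14 +/+;CrxpNrl replicate 3 was the lowest of its group at 5.75, below 3 mice at 6.70 to 6.81, and still above every Rorb-/-;CrxpNrl mouse.

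The Rorb effect in transgenic retinas differed between P14 and P28 for 3 of the 8 genes by an interaction term in limma, where 12.5% of all genes were called. This contrast was added after the values had been seen. The change from P14 to P28 was -1.41 for Sh2d1a (adjusted p = 0.00205), 0.92 for Plpp2 (adjusted p = 0.025) and 0.65 for C1ql2 (adjusted p = 0.042). With the compared groups alone in the model, limma called neither Plpp2 (adjusted p = 0.0663) nor C1ql2 (adjusted p = 0.0989). Both calls were also lost without single mice. For Sh2d1a the knockout signal lies under the lower quartile of the arrays at both ages, so its change is that of +/+;CrxpNrl mice.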

How the results depend on the processing

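All 8 genes were lower in Rorb-/-;CrxpNrl than in +/+;CrxpNrl or +/+, and 0 of 8 were changed by the transgene in +/+. At both ages this held under every alternative run, for each of the 8 genes that the alternative kept. Leaving out each mouse in turn, the genes higher with the transgene in Rorb-/- numbered 2 to 3 at P14 and 1 to 2 at P28, and 0 to 1 differed in that recovery between ages. Genes whose Rorb effect changed with age numbered 1 to 3. Genes changed from P14 to P28 numbered 2 to 3 in Rorb-/-, 1 to 2 in +/+;CrxpNrl and 0 to 3 in Rorb-/-;CrxpNrl. When the fit held the compared groups alone, 1 gene changed its Rorb effect with age and 0 changed with age in Rorb-/-;CrxpNrl, which with array weights was 1. Without the dimmest 40% of genes, which takes out Sh2d1a, 1 gene changed with age in +/+ and 1 in +/+;CrxpNrl. The C1ql2 change of Rorb effect was 0.60 (limma adjusted p = 0.0624) with arrays shifted to the same median. With the replicate block, Sbspon at P14 was called higher with the transgene (1.13, adjusted p = 0.03), in a comparison whose numbers do not pair the mice, and the block changed no other call. No call reversed its direction. The sign of a difference that was not called could still turn. The P28 difference of Pdzph1 between Rorb-/-;CrxpNrl and Rorb-/- mice was -0.59 with all mice and 0.09 without the low-Nrl mouse. Of 2240 values of single genes 66 changed call or moved beyond the spread, and the cause was not tested. Signals of Nt5e, Sh2d1a and, at P14, Sbspon in Rorb-/- lie near or under the lower quartile of the arrays, where smaller amounts cannot be told apart.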
